A study of Homo sapiens with 12 samples.

Results

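The subject is a set of 5 mature miRNAs, hsa-miR-23a-3p, hsa-miR-23b-3p, hsa-miR-24-3p, hsa-miR-27a-3p and hsa-miR-27b-3p (below without the species prefix), taken by name from the 798 human miRNA probes of a NanoString assay. All 5 had a probe. NanoString counts single target molecules with barcoded probes and no amplification step. Total RNA came from 2 established human acute myeloid leukaemia lines, MOLM-14 and THP-1, each transduced by lentivirus with a short hairpin RNA against MUC1, a transmembrane mucin, or with a scrambled hairpin. The 4 groups of 3 libraries each are silenced MOLM-14 (MUC1 hairpin), scrambled MOLM-14 (control hairpin), silenced THP-1 (MUC1 hairpin) and scrambled THP-1 (control hairpin). RNA was taken from cells that had been transduced successfully, per the labels' protocols, so both arms carried a lentiviral construct. MUC1 itself was not measured here, so the silencing has no check in these values.

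The miRNAs come from a pair of similar loci. One hairpin RNA of each locus gives a miR-23, one a miR-27 and one a miR-24, cut from a shared primary transcript, so the members of a locus are often expected to vary together unless processing or stability differs. In mouse blood progenitors the miR-23a locus is activated by the myeloid transcription factor PU.1 and favours myeloid over B cell development. miR-23 family members restrain glutaminase, miR-27 restrains RUNX1, and miR-24 restrains the histone variant H2AX and the cell cycle factor E2F2.

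On GRCh38, MIR23A, MIR27A and MIR24-2 lie within 373 bases on the minus strand at chr19:13836287-13836659, inside the span of the long noncoding gene MIR23AHG. MIR23B, MIR27B and MIR24-1 lie within 881 bases on the plus strand at chr9:95085208-95086088, inside the span of the protein coding gene AOPEP. RefSeq gave a mature sequence for all 5 members and for all 6 hairpins. The mature sequences are printed to show which members the assay has to tell apart, with the seed (bases 2 to 8) in capitals, and miR-23c, of the same seed but from chromosome X, is added.
miR-23a-3p: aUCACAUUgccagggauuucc
miR-23b-3p: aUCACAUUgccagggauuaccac
miR-23c: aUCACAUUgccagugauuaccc
miR-27a-3p: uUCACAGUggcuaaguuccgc
miR-27b-3p: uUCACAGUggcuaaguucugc
miR-24-3p: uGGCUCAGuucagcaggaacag
The set thus has 3 seeds. Counting positions from 1 at the 5′ end and giving the base of the miRNA named first, miR-23a-3p and miR-23b-3p share 20 of the 21 bases they can be compared over, differing by U19A, and miR-23b-3p has 2 more bases at its 3′ end. miR-23a-3p and miR-23c share 19 of 21 bases, with G14U and U19A. miR-27a-3p and miR-27b-3p share 20 of 21 bases, with C19U. Over the first 8 bases the miR-23a-3p and miR-27a-3p sequences differ by A1U and U7G.

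The hairpins of the chromosome 19 locus are shown in the order of transcription, with the mature arm in capitals, followed by the second hairpin that yields miR-24-3p. 
MIR23A: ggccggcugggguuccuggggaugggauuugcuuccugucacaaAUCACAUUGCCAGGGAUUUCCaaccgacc
MIR27A: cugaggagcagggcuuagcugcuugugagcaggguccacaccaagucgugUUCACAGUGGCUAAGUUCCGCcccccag
MIR24-2: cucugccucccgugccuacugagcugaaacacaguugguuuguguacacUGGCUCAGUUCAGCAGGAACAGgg
MIR24-1: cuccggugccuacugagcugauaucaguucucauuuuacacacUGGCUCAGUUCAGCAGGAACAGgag
The capitals of MIR24-2 and MIR24-1 are the same sequence, so the miR-24-3p probe counts both loci together, whereas miR-23a-3p and miR-27a-3p stand for chromosome 19 and miR-23b-3p and miR-27b-3p for chromosome 9.

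Library totals ranged from 9002 to 20418 counts. They were 9002 to 12613 in silenced THP-1, against 17123 to 20418 in scrambled THP-1. In MOLM-14 they were 11103 to 17281 in silenced cells, against 12978 to 17527 in scrambled cells. The smallest deposited count was 1, and no negative control probes were used here. A total of 630 probes (78.9% of all) stayed above 1 and under 30 counts in all 12 libraries and are called background probes. For MOLM-14 their library means averaged 12.1 ± 1.34 counts in silenced cells (SD, n = 3), against 13.6 ± 1.34 in scrambled cells (n = 2). For THP-1 they averaged 12.5 ± 2.12 counts in silenced cells, against 14.1 ± 0.769 in scrambled cells (n = 3 each). Scrambled MOLM-14 replicates 2 and 3 could not be told from sampling noise at the 0.05 level in a chi-square test of all probes (p = 0.0521, a chi-square of 1.08 per degree of freedom), unlike both remaining pairs in scrambled MOLM-14. They therefore entered means and SDs of counts as their average, 1 sample. The edgeR fits and the ratio tests kept them as separate libraries. The 3 silenced THP-1 libraries were as close to each other, at 0.990 to 1.09 per degree of freedom, but were kept as 3. Of their pairs, only replicates 1 and 3 differed at the 0.05 level (chi-square p = 0.0318). Scrambled THP-1 replicates 1 and 3 also could not be told from sampling noise (chi-square p = 0.0775) and were kept as separate libraries. Averaging was thus applied to scrambled MOLM-14 only, and SDs in silenced THP-1 may hold little beyond counting error. Silenced MOLM-14 replicate 2 was unlike the other silenced MOLM-14 libraries (Pearson r across probes 0.654 and 0.697), and the source names of silenced MOLM-14 replicates 2 and 3 read MUC2 and MUC3, while their titles and transduction labels say MUC1. The number of probes with 30 counts or more was 14 to 32 per silenced THP-1 library, against 54 to 65 per scrambled one. miR-223-3p, a myeloid marker, reached 30 counts in 6 of the 12 libraries. Of 14 markers of erythroid, epithelial, liver, muscle, neural and endothelial cells 13 stayed under 30 counts everywhere, and the liver marker miR-122-5p reached 52 counts in 1 library. The summed counts of the 14 markers lay between 164 and 196 in silenced MOLM-14, 186 and 212 in scrambled MOLM-14, 138 and 176 in silenced THP-1 and 177 and 233 in scrambled THP-1. The labels do not say whether the 3 libraries of a group were separate cultures, and p-values therefore reflect the spread among these libraries, which may be technical.

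The counts of the 5 probes differed sharply. How counts of different probes relate to the amounts of their miRNAs was not tested. miR-23a-3p stood far above the background probes in 9 of the 12 libraries and lay among them in the 3 silenced THP-1 libraries. miR-23b-3p, miR-24-3p, miR-27a-3p and miR-27b-3p never reached 30 counts in any library. All 4 therefore belong to the 630 background probes, a set defined by that same limit, so membership does not show that a miRNA was absent. Without negative controls, a weak signal of the partners cannot be told from background here. In replicate 1, miR-23b-3p had 27 counts in scrambled THP-1 and 24 in scrambled MOLM-14. The 95th percentiles of the background probes in these groups were 23.0 and 22.3.

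miR-23a-3p had 89, 79 and 100 counts in silenced MOLM-14, against 83, 103 and 105 in scrambled MOLM-14. In THP-1 it had 13, 15 and 12 counts in silenced cells, against 71, 75 and 82 in scrambled cells. The MOLM-14 groups overlapped, and the THP-1 groups were far apart. By rank among the 798 probes of a library, miR-23a-3p lay between percentiles 96.9 and 99.4 in silenced MOLM-14 and 98.7 and 99.2 in scrambled MOLM-14. The range was 38.4 to 63.7 in silenced THP-1, against 98.2 to 98.7 in scrambled THP-1. Its highest rank was 5, in silenced MOLM-14 replicates 1 and 3, and its lowest rank was 456, in silenced THP-1 replicate 1. Because a rank uses only the order of probes within a library, it does not depend on how libraries are scaled.

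**Figure D1:**
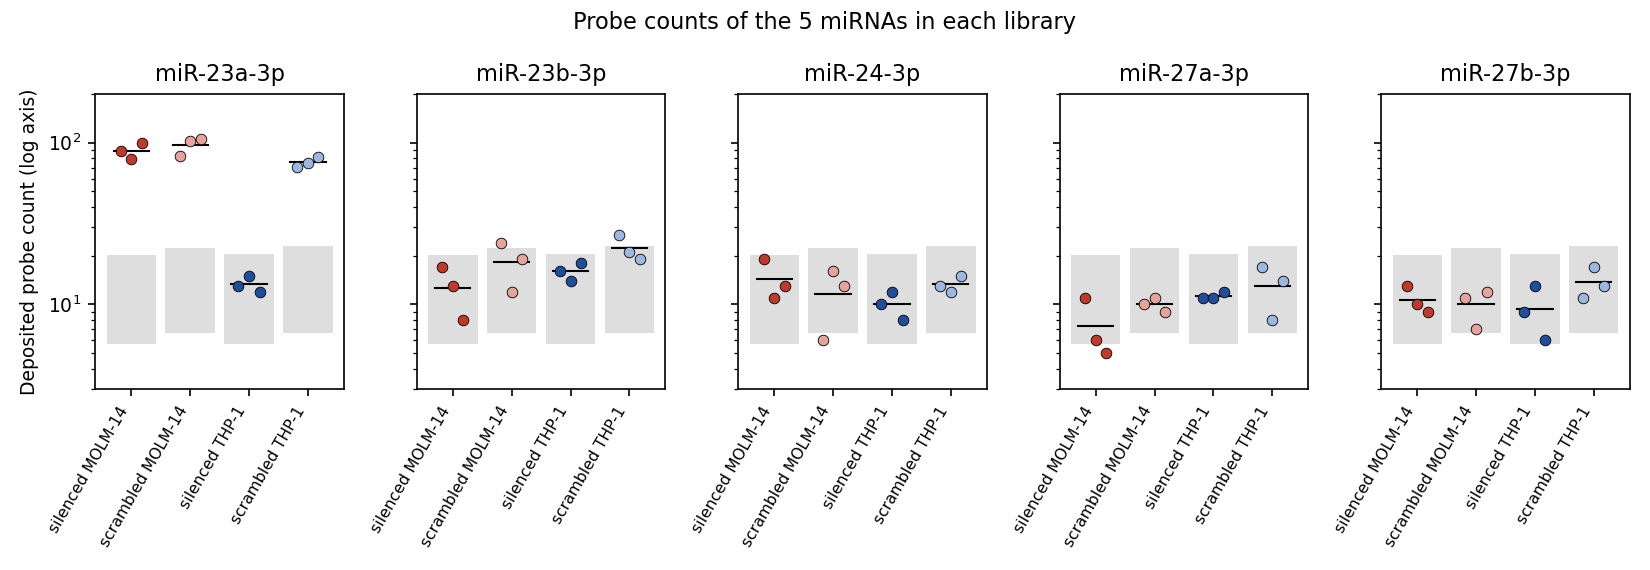
Deposited probe counts (log axis) of the 5 miRNAs by group; points are single libraries, black lines the means of 3 libraries, and grey boxes the 5th to 95th percentile of the 630 background probes, averaged over the libraries of a group. miR-23a-3p lies above the grey boxes except in silenced THP-1 (12 to 15 counts), and the other miRNAs lie in or beside the boxes in every group, with no count above 27.

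miR-24-3p, the partner that both loci encode, had 19, 11 and 13 counts in silenced MOLM-14, against 6, 16 and 13 in scrambled MOLM-14. It had 10, 12 and 8 counts in silenced THP-1, against 13, 12 and 15 in scrambled THP-1. The groups overlapped or touched in both lines. Its mean over the 12 libraries, 12.3 counts, exceeded those of 40.6% of the background probes. Counting error alone spans most of this range, since the exact 95% Poisson interval of its lowest count, 6, runs from 2.20 to 13.1, and that of its highest, 19, from 11.4 to 29.7.

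miR-27a-3p, which lies between MIR23A and MIR24-2, had 11, 6 and 5 counts in silenced MOLM-14, against 10, 11 and 9 in scrambled MOLM-14. It had 11, 11 and 12 counts in silenced THP-1, against 17, 8 and 14 in scrambled THP-1. Its groups overlapped in both lines, and its mean of 10.4 counts exceeded only 16.0% of the background probes, the lowest place of the 5 miRNAs. In scrambled THP-1, where miR-23a-3p had 71 to 82 counts, its neighbour in the same transcript therefore had 8 to 17.

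On chromosome 9, miR-27b-3p had 13, 10 and 9 counts in silenced MOLM-14, against 11, 7 and 12 in scrambled MOLM-14. It had 9, 13 and 6 counts in silenced THP-1, against 11, 17 and 13 in scrambled THP-1. These groups overlapped too, and the mean of 10.9 counts exceeded 22.4% of the background probes.

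miR-23b-3p had 17, 13 and 8 counts in silenced MOLM-14, against 24, 12 and 19 in scrambled MOLM-14. It had 16, 14 and 18 counts in silenced THP-1, against 27, 21 and 19 in scrambled THP-1. Its mean of 17.3 counts exceeded 92.1% of the background probes, the highest place of the 4 partners, and miR-23c had the same mean and the same place. In THP-1 the groups did not overlap in deposited counts, but 13.9% of all 798 probes were lower in this way. After the counts were scaled to equal sums of background probes, miR-23b-3p had 14.1 to 23.3 in silenced THP-1, against 16.9 to 26.7 in scrambled THP-1, and the groups overlapped. miR-23a-3p remained apart on that scale, at 11.99 to 15.6 in silenced THP-1, against 69.4 to 72.8 in scrambled THP-1, as did 11% of all probes on the lower side.

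**Figure D2:**
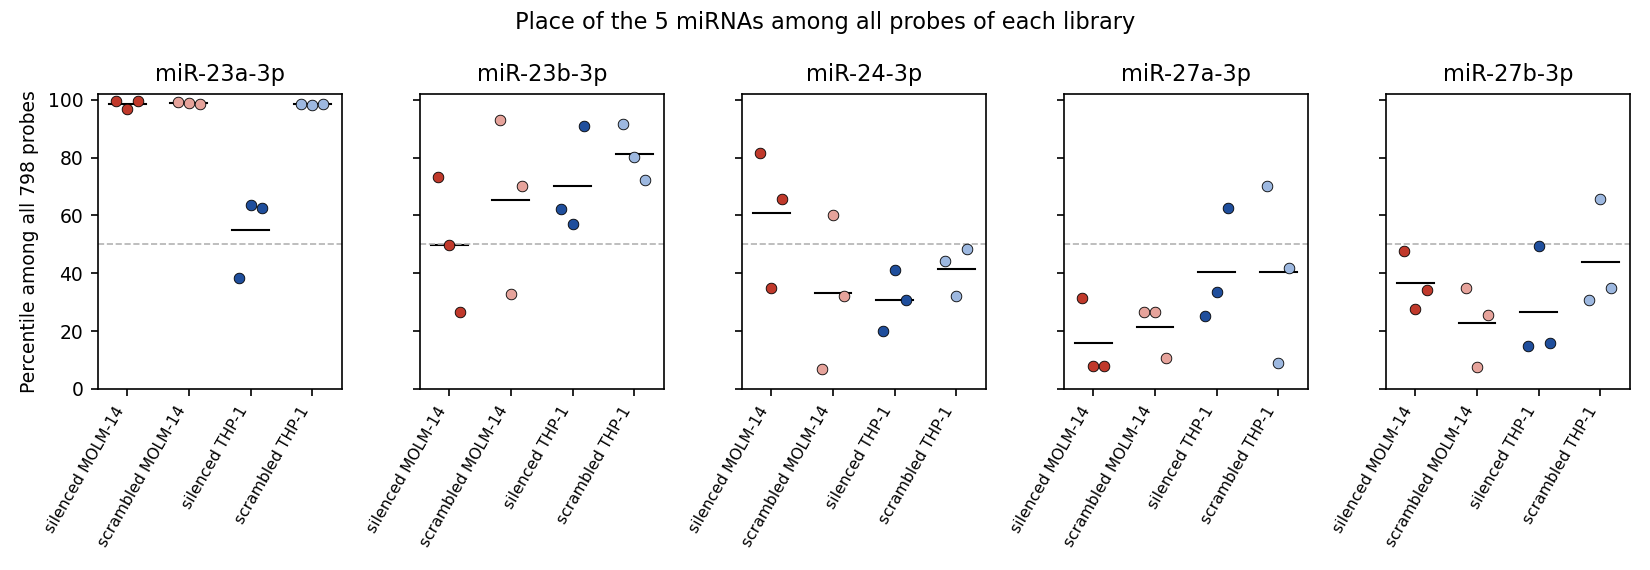
Percentile of each miRNA among all 798 probes of the same library; points are libraries, black lines the means of 3 libraries, and the dashed line the middle of the ranking. miR-23a-3p lies at percentile 96.9 or higher in 9 libraries and between 38.4 and 63.7 in silenced THP-1, while the partners scatter widely within every group.

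The near-identical sequences bear on what each probe counts. Where miR-23a-3p had 71 to 105 counts, in 9 libraries, the miR-23b-3p probe, whose target differs by U19A and 2 added bases, had 8 to 27 counts. Where miR-23a-3p had 12 to 15 counts, in silenced THP-1, the miR-23b-3p probe had 14 to 18. miR-23c ranged from 11 to 27 counts over all 12 libraries. The share of the miR-23b-3p counts that came from miR-23a-3p was not tested.

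The first comparison asked whether the MUC1 hairpin changed the 5 miRNAs in each line. The test took probes that reached 30 counts in 3 or more libraries, which kept 67 of 798 and, of the 5 miRNAs, only miR-23a-3p. It passed this filter in both MOLM-14 groups and in scrambled THP-1. In THP-1 miR-23a-3p fell, with a mean of 13.3 ± 1.53 counts in silenced cells and 76 ± 5.57 in scrambled cells (SD, n = 3 each). Its fitted log2 fold change was -1.74 ± 0.25 (SE), with an edgeR quasi-likelihood adjusted p of 6.16e-06, and all 3 silenced libraries were below all 3 scrambled ones. In THP-1 23.9% of the 67 tested probes fell and 16.4% rose, and the fold change of miR-23a-3p ranked 8 from the lowest. Since its counts in silenced THP-1 were those of background probes, the size of the fall is uncertain: the log2 fold change was -2.31 with scaling on background probes, -3.29 with 10 counts subtracted from every value and -0.999 when only probes with a mean of at least 30 counts were fitted, a fit in which the median of the tested probes was 0.53. With the 3 silenced THP-1 libraries averaged into 1 it was -1.88 (edgeR adjusted p = 0.000889). These are bulk RNA values, in which fewer cells with the miRNA and less of it per cell cannot be told apart.

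The loss of signal in silenced THP-1 was shared by many probes. Of 40 probes at 30 counts or more in all 3 scrambled THP-1 libraries, 21 (52.5%) were under 30 in all 3 silenced ones, miR-23a-3p among them. In MOLM-14 the same held for 5 of 30 probes (16.7%), and miR-23a-3p was not one of them. These counts are unscaled, and the library totals of silenced THP-1 were all below those of scrambled THP-1. The median log2 fold change of the 67 tested probes in THP-1 was -0.03 in the main scaling and -0.61 with scaling on background probes. The value of miR-23a-3p lay well below the median under both. Only 40 of the 67 probes had 30 counts or more in all 3 scrambled THP-1 libraries, and probes near background have little room to fall. The median therefore does not measure the loss among probes with signal.

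In MOLM-14 miR-23a-3p averaged 89.3 ± 10.5 counts in silenced cells (SD, n = 3) and 93.5 ± 14.8 in scrambled cells (n = 2). Its log2 fold change was 0.16 ± 0.22 (edgeR quasi-likelihood adjusted p = 0.747), with a 95% interval from -0.30 to 0.62. It was not among the 10.4% of tested probes that fell or the 5.97% that rose in MOLM-14. The value without silenced MOLM-14 replicate 2, the library that stood apart, was 0.35.

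For the partners, fold changes came from a fit of all 798 probes, with p-values adjusted over all of them. In THP-1 the log2 fold changes were -0.25 (95% interval -0.88 to 0.38) for miR-23b-3p, -0.19 (-0.90 to 0.51) for miR-24-3p, 0.02 (-0.71 to 0.76) for miR-27a-3p and -0.33 (-1.05 to 0.40) for miR-27b-3p. miR-23a-3p in that same fit had -2.27 (-2.80 to -1.74), an interval that meets none of these 4. In MOLM-14 the values were -0.36 (-1.03 to 0.31) for miR-23b-3p, 0.48 (-0.19 to 1.15) for miR-24-3p, -0.26 (-1.11 to 0.58) for miR-27a-3p and 0.28 (-0.47 to 1.02) for miR-27b-3p. None of the 16 edgeR tests of partners over the 4 comparisons passed, 0 had an unadjusted p under 0.05, and with DESeq2 0 passed as well. A miRNA whose scrambled counts already lie among background probes has no room to show a fall, so these intervals describe the probes and do not show that the partner miRNAs held their level.

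**Figure D3:**
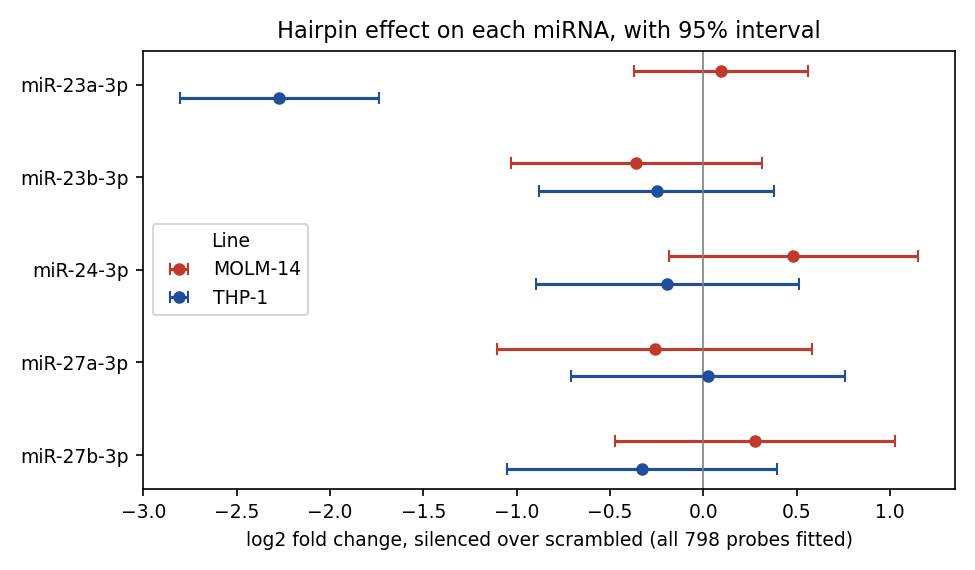
Log2 fold change of silenced over scrambled cells for each miRNA, with 95% intervals, from the fit of all 798 probes, in MOLM-14 (red) and THP-1 (blue). The interval of miR-23a-3p in THP-1 (-2.80 to -1.74) lies apart from 0, and the other 9 intervals include 0.

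Whether partners followed miR-23a-3p was also read from its ratio to each partner within a library, which needs no scaling between libraries. In THP-1 the log2 ratio of miR-23a-3p to miR-24-3p was 0.43 ± 0.14 in silenced cells and 2.51 ± 0.11 in scrambled cells (SD, n = 3 each), a difference of -2.09. To miR-27a-3p it was 0.23 ± 0.22 in silenced and 2.61 ± 0.59 in scrambled THP-1, a difference of -2.38. The differences were -2.04 for miR-23b-3p and -1.92 for miR-27b-3p. For each of the 4 partners, the 3 silenced THP-1 ratios lay below the 3 scrambled ones, with a two-sided exact permutation p of 0.1, the smallest that 3 against 3 libraries allow, and 0.2 after adjustment over the 8 ratios compared. With all partners among the background probes, these ratios carry the fall of miR-23a-3p itself.

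In MOLM-14 the silenced minus scrambled differences of the log2 ratio were 0.43 for miR-23b-3p, -0.49 for miR-24-3p, 0.41 for miR-27a-3p and -0.23 for miR-27b-3p, with exact permutation p-values of 0.5, 0.4, 0.5 and 0.6. The groups overlapped for all 4 partners.

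**Figure D4:**
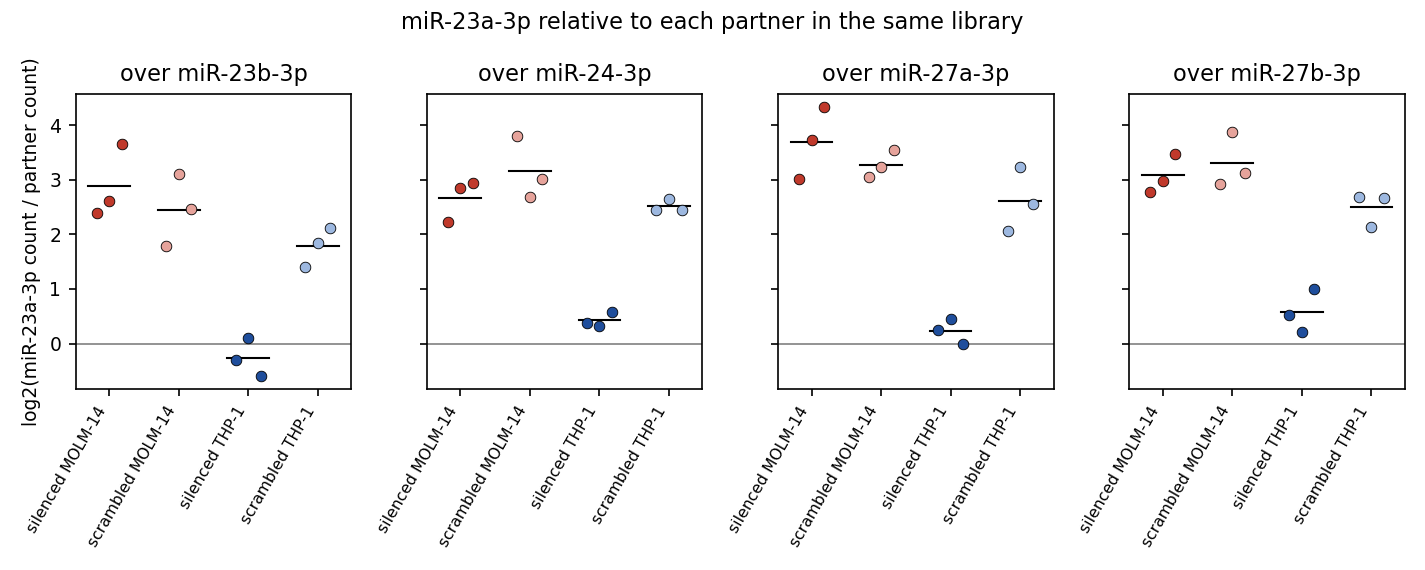
Log2 ratio of the miR-23a-3p count to the count of each partner in the same library, by group; points are libraries, black lines the means of 3 libraries, and the grey line equal counts. Silenced THP-1 libraries lie between -0.58 and 1.00, below the 1.39 to 3.23 of scrambled THP-1, and the MOLM-14 groups overlap.

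The hairpin effect on miR-23a-3p differed between the lines. The THP-1 effect minus the MOLM-14 effect was -1.89 ± 0.34 on the log2 scale (SE, edgeR quasi-likelihood adjusted p = 0.000124). Of the tested probes 20.9% passed with such a lower effect in THP-1, and miR-23a-3p ranked 10 from the lowest. For the partners, from the fit of all probes, the difference was 0.11 (95% interval -0.81 to 1.03) for miR-23b-3p, -0.68 (-1.64 to 0.29) for miR-24-3p, 0.28 (-0.83 to 1.40) for miR-27a-3p and -0.60 (-1.65 to 0.44) for miR-27b-3p.

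Between the lines with the scrambled hairpin, miR-23a-3p averaged 76 ± 5.57 counts in THP-1 (SD, n = 3) and 93.5 ± 14.8 in MOLM-14 (n = 2), with a log2 fold change of -0.51 ± 0.22 that did not pass (edgeR quasi-likelihood adjusted p = 0.146). The probes lower in scrambled THP-1 made up 1.49% of those tested. It passed in the fit of only these groups (-0.47, edgeR adjusted p = 0.0431) and without silenced MOLM-14 replicate 2 (-0.50, edgeR adjusted p = 0.0349), so the call rests on the choice of libraries. In order of mean deposited count from the highest, miR-23a-3p went scrambled MOLM-14, silenced MOLM-14, scrambled THP-1 and silenced THP-1. The first 2 groups overlapped, as did silenced MOLM-14 (79 to 100 counts) and scrambled THP-1 (71 to 82). Silenced THP-1 was apart from all others. This order and these overlaps are of unscaled counts. After scaling to equal sums of background probes, silenced MOLM-14 averaged 98.7 and scrambled MOLM-14 90.3, and these groups still overlapped. On that scale silenced MOLM-14 (81.7 to 124) lay above scrambled THP-1 (69.4 to 72.8).

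Other products and neighbours of the loci gave the same picture as the partners. miR-3074-3p, from the strand opposite MIR24-1, had 5 to 15 counts over the 12 libraries. MIR181C lies 38039 bases from MIR23A on chromosome 19. miR-181c-5p, of the miR-181 family, had 8 to 26 counts, and miR-181d-3p had 7 to 22. The probe that counts miR-181b-5p and miR-181d-5p together had 10 to 28. These 4 probes and miR-23c all belong to the background probes. Of 9 other products and same-seed relatives looked for by name, only 2, miR-23c and miR-3074-3p, had a probe. The 5p arms of the 6 hairpins had no probe under their names and could not be analysed.

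Of the 67 tested probes, those whose levels across the 12 libraries were most like miR-23a-3p were miR-181a-5p (Pearson r = 0.88 on TMM-scaled log2 counts), miR-25-3p (0.87), miR-155-5p (0.83), miR-223-3p (0.82) and, last, miR-128-1-5p (0.82). All points share the library totals and the low silenced THP-1 libraries, and Spearman rho for miR-223-3p was only 0.46. Picking probes for this likeness over the same libraries favours those lower in silenced THP-1. Their values in THP-1 are therefore no separate support. miR-181a-5p, known for tuning T cell receptor signalling, averaged 435 ± 51.1 counts in silenced MOLM-14 (SD, n = 3), against 281.5 ± 91.2 in scrambled MOLM-14 (n = 2). In THP-1 it averaged 19.7 ± 2.52 in silenced cells, against 78.7 ± 6.35 in scrambled cells (n = 3 each). miR-25-3p, of a miR-17-92 paralog cluster, averaged 27.7 ± 9.71 in silenced THP-1, against 70.3 ± 4.04 in scrambled THP-1, with a fitted log2 fold change of -0.60 (edgeR adjusted p = 0.0464). miR-128-1-5p averaged 24.3 ± 2.08 in silenced THP-1, against 54.7 ± 8.5 in scrambled THP-1, and its fitted value of -0.39 did not pass (edgeR adjusted p = 0.117).

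A list of 9 miRNAs active in myeloid cells was set beside the set. Of its 5 tested members, 3 fell and 0 rose in THP-1, namely miR-223-3p (-1.63), miR-181a-5p (-1.23) and miR-155-5p (-0.75), which promotes inflammatory activation; over all tested probes 23.9% fell and 16.4% rose. The miR-155-5p call was lost in 4 of 26 alternatives: without scrambled THP-1 replicate 1 (-0.33) or 2 (-0.47), with the silenced THP-1 libraries averaged (-0.85) and with the filter on a mean of 30 counts (-0.0068). The values of the other 2 were -0.39 for miR-21-5p and -0.20 for miR-342-3p; both passed as lower with scaling on background probes (-0.97 and -0.79). The median log2 fold change of the 5 was -0.75, against -0.03 over all tested probes. The 5 averaged 36 to 78.7 counts in scrambled THP-1, so they had room to fall that tested probes near background lacked. The filter left out miR-146a-5p, miR-424-5p, miR-29a-3p and miR-132-3p. Unscaled, these averaged 20, 13, 16 and 13 counts in silenced THP-1, against 27, 14.7, 12 and 14 in scrambled THP-1. Of these untested members, miR-29a-3p alone was higher in silenced THP-1. In MOLM-14 2 of the 5 rose, miR-21-5p (0.64) and miR-181a-5p (0.80), and 0 fell, where 5.97% of all tested probes rose and 10.4% fell, with a list median of 0.64 against -0.03 over all tested probes. The miR-21-5p call was lost in 17 of 25 alternatives, among them leaving out silenced MOLM-14 replicate 3 (0.47), any 1 scrambled MOLM-14 library (0.57 to 0.70) and most single THP-1 libraries. miR-342-3p (0.75) did not pass in MOLM-14 but did in 6 of 24 alternatives, among them without silenced replicate 1 (0.84) or 2 (0.86).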

How the data were processed

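Probe counts were deposited as 1 table of 798 probes in 12 libraries, all whole numbers with unequal totals. They come from a NanoString assay, per the labels' protocols. Their counting software, background correction and scaling: not given in the sources used here. Columns carry sample identifiers, and 0 were left unmapped. Groups follow titles and transduction labels.

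The 67 probes that reached 30 counts in 3 or more libraries were fitted in 1 model of 4 group means with edgeR 4.0.16 (R 4.3.3, TMM factors, robust quasi-likelihood), and p-values were adjusted by Benjamini-Hochberg at 0.05. Partners under the filter were fitted with all 798 probes. Errors are standard errors for log2 fold changes and SDs for counts. Ratios were compared with a two-sided exact permutation test. The members, lists, filter and alternatives were chosen with earlier results of these data known. Named were the 5 members, other products of their loci, neighbours on chromosome 19, a myeloid list and the 5 tested probes most correlated with miR-23a-3p. The fit was tested on simulated data. Alternatives used DESeq2 1.42.0, limma 3.58.1 on log2 counts (pseudocount 1 or 10), scaling by totals, the top 100 probes or background probes, subtraction of 10 counts, other filters, a replicate block and left-out libraries. Counting intervals (95%) cover counting error only. Mature and hairpin sequences and coordinates are RefSeq's (GRCh38.p14).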

Additional observations from a re-analysis of the deposited data

Results flagged for a closer look

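In the test of the difference the MUC1 hairpin changed miR-23a-3p unequally in MOLM-14 and THP-1, with a log2 value of -1.89 for THP-1 minus MOLM-14 (edgeR quasi-likelihood adjusted p = 0.000124). It was 1 of 14 probes (20.9% of 67) lower in this test. It passed in all 25 alternative settings run, with values from -3.59 to -1.13. Groups of 3 libraries are too small for the search for single outlying samples.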

How the results depend on the processing

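miR-23a-3p passed as lower in silenced THP-1 in all 26 alternatives run (log2 fold change -3.29 to -0.999; -1.91 to -1.43 with single libraries left out) and did not pass in MOLM-14 in any of 25 (-0.04 to 0.35). None of 360 partner values under the alternatives passed. With a replicate block the miR-23a-3p values were -1.73 in THP-1 and 0.14 in MOLM-14. The labels do not say what libraries with the same repeat number share. Their deviations from group means had a median correlation of 0.02 (-0.43 to 0.49), and 5 of 12 libraries were closest to one of the same number. For scrambled THP-1 against scrambled MOLM-14 the miR-23a-3p value was -0.47 with only the groups compared, and -0.57 to -0.42 with single libraries left out. With 10 counts subtracted, the THP-1 ratio differences were -3.36 for miR-23b-3p, -3.10 for miR-24-3p, -3.14 for miR-27a-3p and -3.47 for miR-27b-3p, since subtracting a constant widens ratios of low counts, and some counts of the last 3 partners then stand at the floor of 1. The MOLM-14 ratio differences with scrambled replicates 2 and 3 averaged, an alternative chosen after seeing the data, lay within the spread of replicates.

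The number of probes called was 27 in THP-1 (15 with the silenced samples averaged into 1, which assumes that this sample varies like the other groups), 11 in MOLM-14 (9 to 21 with single libraries left out), 18 for the difference between the lines (11 with the silenced THP-1 samples averaged) and 2 between scrambled lines. That last count was 6 with limma (pseudocount 1), 5 with total count scaling, 5 with background scaling, 16 with only the groups compared and 2 to 13 with single libraries left out. With background scaling the higher share of calls was 6.06% against 40.7% in THP-1, 8% against 22.2% for the difference and 80% against 50% between scrambled lines. With the filter on a mean of 30 counts it was 57.1% in THP-1, 61.1% for the difference and 50% against 36.4% in MOLM-14. With the filter at 20 counts it was 13% in THP-1 and 11.1% for the difference. In THP-1 it was also 11.5% with no filter, 52.8% with only the groups compared and 13.3% with the silenced samples averaged. Between scrambled lines total count scaling gave 20%. A fall of a probe that starts among background cannot be seen at this depth.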
